A study of Homo sapiens with 4 samples.

Results

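The genes described here are 9 core genes of the Hedgehog pathway: the transcription factors GLI1, GLI2 and GLI3, the receptor PTCH1, the signal transducer SMO, the inhibitor SUFU, the ligand-binding protein HHIP and the co-receptors BOC and GAS1. They were chosen by name, and each was found among the 57820 gene identifiers of the files. All 9 were among the 17024 genes with enough reads to test. Expression was measured by RNA sequencing of poly(A)-selected RNA from Daoy, an established human medulloblastoma cell line. One library, labelled ARID1B shRNA, came from cells with a lentiviral, doxycycline-switched short hairpin RNA against ARID1B, a DNA-binding subunit of the BAF chromatin remodelling complex. It was set against 3 libraries labelled wild type. Per the labels, cells of both groups received doxycycline at 1 µg/ml for 72 h. The shRNA cells were a polyclonal population made with the vector tet-pLKO-puro, and their group has no replicate. The series' design text names both parental cells and cells with the empty vector as controls; which of these each wild-type library was is not given. Nothing in the labels says that the wild-type libraries were separate cultures, so p-values measure only the spread between these libraries, which may be technical.

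In vertebrates, Hedgehog ligands bind PTCH1 and relieve its block on SMO, which acts at the primary cilium. Active SMO frees GLI2 and GLI3 from SUFU and keeps them from being trimmed into repressors, GLI3 being the main repressor and GLI2 the main activator. GLI1, PTCH1 and HHIP are direct targets whose mRNA is widely used to read pathway activity, and PTCH1 and HHIP also hold the ligand back. BOC, GAS1 and CDON help the ligand reach PTCH1. In the cerebellum, Sonic hedgehog drives the division of granule neuron precursors, and overactive signalling through this route defines a subgroup of medulloblastoma.

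GLI factors bind a 9-base consensus, GACCACCCA, and the promoter windows of 7 of the 9 genes were searched for it on both strands, from 250 bases before to 50 bases after each annotated RefSeq start. Of 13 such windows 1 held it, at a start of the target gene PTCH1. The windows at the other PTCH1 starts held none, and PTCH1 had more windows than any other of these genes. In all 35116 windows of the RefSeq table, 83 held it (0.236%). The first sequence below is that PTCH1 window, at chr9:95509217-95509516 of GRCh38.p14 on the minus strand, with the match, read here as its reverse complement TGGGTGGTC, in capitals. It lies 172 to 164 bases before the start. The second is the window of the target gene HHIP, at chr4:144645906-144646205 on the plus strand, which has no match. The counts are per gene, so they do not say which start was used. A match is a description of the letters and not evidence of binding.
PTCH1: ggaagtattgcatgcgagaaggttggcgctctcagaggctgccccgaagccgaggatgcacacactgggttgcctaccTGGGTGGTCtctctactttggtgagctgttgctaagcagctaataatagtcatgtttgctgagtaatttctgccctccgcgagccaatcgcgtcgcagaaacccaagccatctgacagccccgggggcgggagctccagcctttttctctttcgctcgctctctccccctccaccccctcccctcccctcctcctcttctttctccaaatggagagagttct
HHIP: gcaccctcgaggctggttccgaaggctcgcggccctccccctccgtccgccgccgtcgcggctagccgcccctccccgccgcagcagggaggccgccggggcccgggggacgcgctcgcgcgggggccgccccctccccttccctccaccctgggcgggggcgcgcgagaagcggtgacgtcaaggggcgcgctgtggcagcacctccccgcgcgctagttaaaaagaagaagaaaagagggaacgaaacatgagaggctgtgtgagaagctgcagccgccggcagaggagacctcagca

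The library labelled ARID1B shRNA held 8792848 reads assigned to genes, and the wild-type libraries held 12619786 to 15390106. The mRNA of ARID1B, the target of the shRNA, measured 175 CPM in the library labelled ARID1B shRNA, and 164, 87.9 and 72.8 CPM in the 3 wild-type libraries (edgeR adjusted p = 0.399). CPM are reads of a gene relative to the library's reads, scaled by the TMM method. The targeted mRNA was thus above all wild-type libraries, and it was called higher when wild-type library 1 was left out (log2 fold change 1.12, edgeR adjusted p = 0.026), while its fold change turned to -0.14 once the trend described next was taken out. The run without wild-type library 1 called 912 of 16809 tested genes higher. The directions below are those of the library labelled ARID1B shRNA, as labelled. Fold change ran with GC content over all genes. The median log2 fold change went from -0.30 in the lowest decile of GC content to 1.32 in the highest. Values are therefore also given after taking out the trend that each library shows with GC content and transcript length (trend removed). With a lone library in its group, a technical trend and a change of expression that runs with GC content cannot be told apart. Of 10 markers of granule precursors and medulloblastoma, ATOH1 had 0 counts in every library, and BARHL1, NEUROD1 and EOMES stayed below 1 CPM throughout. The other 6, PAX6, ZIC1, ZIC2, OTX2, SOX2 and NES, exceeded 1 CPM in at least 1 library. The 8 fibroblast and mesenchyme markers each exceeded 1 CPM in at least 1 library. They summed to 4600 CPM in the library labelled ARID1B shRNA and to 6383 to 8270 CPM in wild type. In such bulk RNA, fewer cells of a type and less RNA per cell cannot be told apart.

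No core Hedgehog gene differed at an edgeR adjusted p below 0.05, where 4.48% of all tested genes did. In the fit as measured 7 of the 9 were lower, where 53.2% of all tested genes were, and 2, GLI2 and SMO, were higher. The median log2 fold change of the 9 was -0.60 against -0.05 over all tested genes. The level in the library labelled ARID1B shRNA lay below all 3 wild-type libraries for 5 genes (GLI3, PTCH1, SUFU, HHIP and GAS1), above them for 2 (GLI2 and SMO) and among them for 2 (GLI1 and BOC). Over all tested genes 37.9% lay below and 35.4% above. With an unadjusted edgeR p below 0.05 there were 3 genes, GAS1, GLI3 and GLI2, against 25.4% of all tested genes. By limma-voom 0 of the 9 passed, where 819 of 17024 tested genes did. By DESeq2 1 passed, GAS1, where 10.4% of all tested genes did. After removal of the trend all 9 had fitted values below 0, where 54.65% of all tested genes did. The median of the 9 was then -0.83 against -0.06 over all genes. By level, 7 of the 9 lay below every wild-type library, against 38.2% of all tested genes. Again 0 passed, where 3.34% of all tested genes did and 1.16% were called lower.

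**Figure D1:**
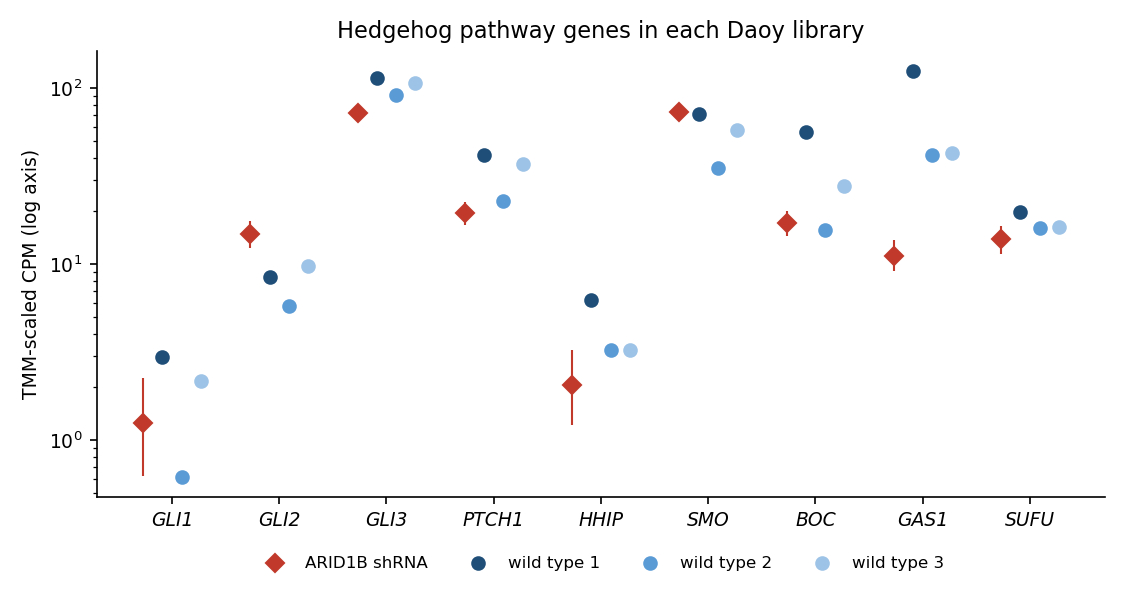
TMM-scaled CPM of the 9 genes on a log axis, in the library labelled ARID1B shRNA (diamonds, with exact 95% Poisson intervals) and in the 3 wild-type libraries (circles). GAS1 is the gene farthest from wild type, at 11.2 CPM against 41.8 CPM or more, while GLI1 and BOC fall among the wild-type libraries.

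Among the direct targets, PTCH1 and HHIP lay below wild type without passing the test, and GLI1 was scarce in both groups. PTCH1 measured 19.5 CPM in the library labelled ARID1B shRNA (exact 95% Poisson interval 16.7 to 22.6), while wild-type libraries 1 to 3 measured 41.6, 22.8 and 37.0 CPM. The groups did not overlap, but wild-type library 2 lay nearer to the library labelled ARID1B shRNA than to the other two. The log2 fold change of PTCH1 was -0.80 with a standard error (SE) of 0.39 and a 95% interval of -1.76 to 0.17 (edgeR adjusted p = 0.263). It was -1.20 (SE 0.35) with the trend removed (edgeR adjusted p = 0.124). The call turned with no filter on low counts, where PTCH1 passed at -0.82 (edgeR adjusted p = 0.0461). In that run 3226 of 30709 tested genes were called.

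HHIP, a decoy that binds Hedgehog ligands at the cell surface, measured 2.05 CPM in the library labelled ARID1B shRNA, from 18 counts (interval 1.22 to 3.24), against 6.20, 3.24 and 3.25 CPM in wild type. The upper end of that counting interval came level with the lower pair of wild-type libraries. Its log2 fold change was -1.04 with an SE of 0.58 and an interval of -2.46 to 0.38 (edgeR adjusted p = 0.312), and -0.83 with the trend removed (edgeR adjusted p = 0.418). GLI1, at once a target and an activator of the pathway, had 11 counts in the library labelled ARID1B shRNA and 38, 8 and 33 counts in wild type. These are 1.25 CPM (interval 0.625 to 2.24) against 2.95, 0.617 and 2.15 CPM, so the value stood inside the wild-type range. The log2 fold change of GLI1 was -0.60 with an interval of -2.91 to 1.71 (edgeR adjusted p = 0.716), wide enough to hold a change of several-fold either way.

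The other GLI factors went apart as measured. GLI3 measured 72.0 CPM in the library labelled ARID1B shRNA (interval 66.5 to 77.8), against 114, 91.5 and 107 CPM in wild type. It lay below every wild-type library, with a log2 fold change of -0.53, an SE of 0.20 and an interval of -1.02 to -0.04 (edgeR adjusted p = 0.173). After removal of the trend it was -0.67, SE 0.16 (edgeR adjusted p = 0.0795). GLI2 measured 14.8 CPM in the library labelled ARID1B shRNA (interval 12.4 to 17.6), against 8.37, 5.79 and 9.75 CPM in wild type, above each of them. The fitted log2 fold change came to 0.89, SE 0.35 (edgeR adjusted p = 0.189), and it turned to -0.12 with an SE of 0.25 with the trend removed (edgeR adjusted p = 0.815). GLI2 is rich in GC, at 60.8% of its longest transcript against 50.7% for GLI3. The fitted trend at the GC content and length of GLI2 alone came to 1.04 on the log2 scale. The part of that trend in the GLI2 value was not tested.

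The make-up of GLI reads differed in the same way. GLI2 gave 16.8% of all GLI1, GLI2 and GLI3 reads in the library labelled ARID1B shRNA (130 of 773 reads, exact 95% Clopper-Pearson interval 14.3% to 19.6%), against 6.71%, 5.91% and 8.22% in wild type. GLI3 gave 81.8% (interval 78.9% to 84.4%) against 90.9%, 93.5% and 90.0%. Both shares lay outside the wild-type range, and these intervals cover counting error only. One library against 3 cannot give a one-sided exact permutation p below 0.25, so the shares were not tested. After removal of the trend the GLI2 share was 11.3% against 7.90%, 7.79% and 8.12%, still above each wild-type library and nearer to them. The level of GLI2 was then among the wild-type libraries, at 8.63 CPM against 10.3, 8.45 and 9.35 CPM. That of GLI3 was below each of them, at 66.7 CPM against 116, 99.2 and 104 CPM. As counted, GLI1 gave 1.42% against 2.36%, 0.630% and 1.81%. Counted per length of the longest transcript, GLI3 remained the most abundant, at 8.77 CPM per kb in the library labelled ARID1B shRNA and 12.7 ± 1.37 CPM per kb (SD, n = 3) in wild type, and GLI1 the scarcest, at 0.347 and 0.526 ± 0.327 CPM per kb.

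**Figure D2:**
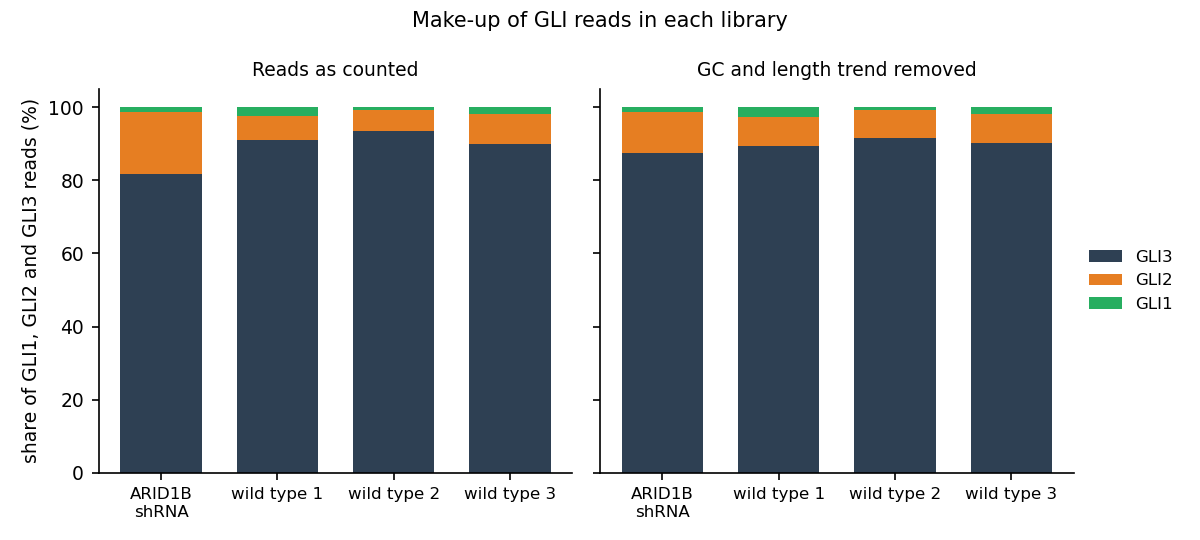
Shares of GLI3, GLI2 and GLI1 reads among all GLI reads in each library, in percent, as counted (left) and after removal of the trend on GC content and length (right). The GLI2 share is 16.8% in the library labelled ARID1B shRNA and at most 8.22% in wild type as counted, and 11.3% against at most 8.12% on the right.

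At the cell surface, GAS1 showed the widest gap and SMO none that was stable. GAS1, a membrane-anchored co-receptor that binds Sonic hedgehog, measured 11.2 CPM in the library labelled ARID1B shRNA (interval 9.06 to 13.6), against 125, 41.8 and 42.8 CPM in wild type. It lay below each wild-type library, and wild-type library 1 lay well above the other two. The log2 fold change was -2.64 with an SE of 0.86 and an interval of -4.84 to -0.45 (edgeR adjusted p = 0.146), and 1.35% of all tested genes had a lower one. With the trend removed it was -3.13, SE 1.09 (edgeR adjusted p = 0.222). GAS1 passed in 2 alternatives: without wild-type library 1 it was -1.92, SE 0.32 (edgeR adjusted p = 0.0109), and with DESeq2 -2.62 (DESeq2 adjusted p = 6.69e-04). The run without wild-type library 1 called 1189 of 16809 tested genes, and DESeq2 called 10.4% of all tested genes. The sum of the 8 fibroblast and mesenchyme markers is given above. Of these, 5 also lay below every wild-type library (COL1A2, COL3A1, LUM, PDGFRB and VIM), where 37.9% of all tested genes did. The remaining 3 lay among the wild-type libraries (COL1A1, DCN and THY1). VIM was the marker that passed, beside 0.834% of all tested genes called lower. It measured 935 CPM in the library labelled ARID1B shRNA and 2653, 2439 and 2435 CPM in wild type (edgeR adjusted p = 0.0213). The part of these markers in the GAS1 value was not tested.

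BOC, an immunoglobulin-family co-receptor, measured 17.0 CPM in the library labelled ARID1B shRNA (interval 14.3 to 19.9), against 56.2, 15.7 and 27.6 CPM in wild type. The wild-type libraries spread widely and the library labelled ARID1B shRNA fell among them (log2 fold change -0.97, SE 0.75, edgeR adjusted p = 0.463). The value was -0.35 when wild-type library 1 was left out (edgeR adjusted p = 0.655). With the trend removed BOC was at -1.31 and lay below every wild-type library, at 14.1 CPM against 60.8, 18.2 and 26.3 CPM (edgeR adjusted p = 0.442). CDON, the partner of BOC in structure and role, measured 8.77 CPM against 22.4, 12.0 and 12.6 CPM, below each wild-type library (log2 fold change -0.84, SE 0.46, edgeR adjusted p = 0.309). In all 3 co-receptors wild-type library 1 was the highest library.

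SMO, the receptor-like protein that carries the signal across the membrane, measured 72.7 CPM in the library labelled ARID1B shRNA (interval 67.1 to 78.5), against 71.4, 35.0 and 57.8 CPM in wild type. The value was next to that of wild-type library 1 (log2 fold change 0.41, SE 0.39, edgeR adjusted p = 0.547). With the trend removed it turned to -0.59 (SE 0.34, edgeR adjusted p = 0.364), with 42.9 CPM against 86.8, 51.3 and 55.0 CPM. SMO had the highest GC content of the 9 genes, 61.5%, and the part of GC content in the SMO value was not tested. SUFU, which binds and restrains GLI proteins in the cytoplasm, measured 13.8 CPM in the library labelled ARID1B shRNA (interval 11.4 to 16.5), against 19.8, 16.1 and 16.2 CPM in wild type. It lay just below the wild-type libraries, within counting error of the lower pair (log2 fold change -0.33, SE 0.26, edgeR adjusted p = 0.468; -0.80 and edgeR adjusted p = 0.155 with the trend removed).

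**Figure D3:**
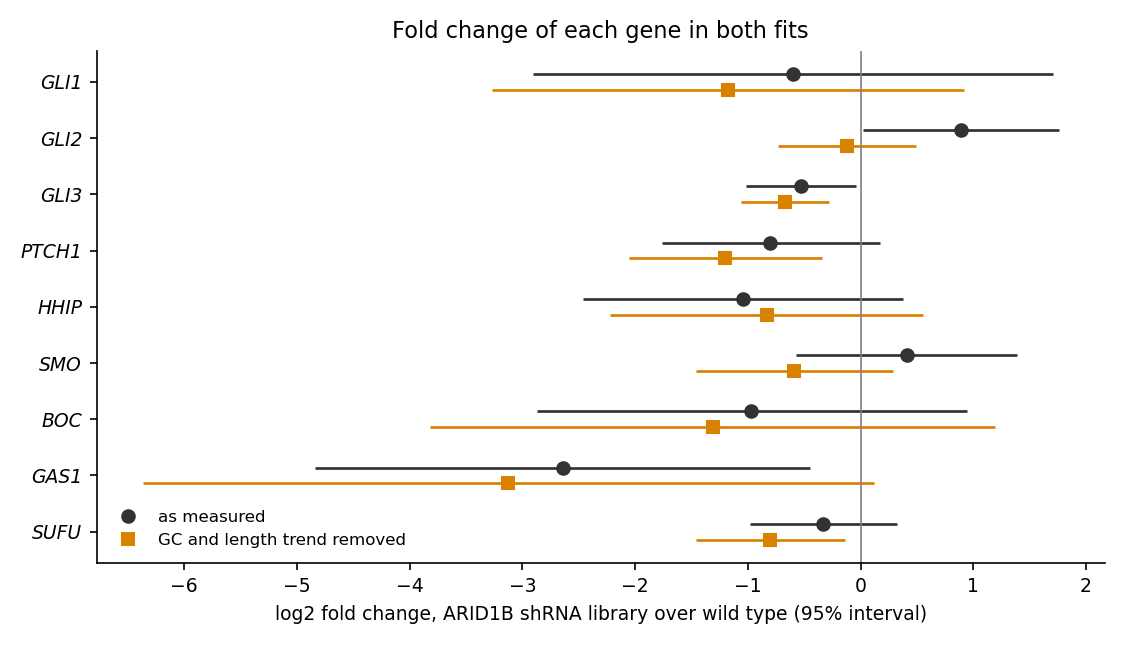
Log2 fold change of the library labelled ARID1B shRNA over wild type, with 95% intervals, as measured (circles) and after removal of the trend on GC content and length (squares). GLI2 and SMO lie above 0 as measured, at 0.89 and 0.41, and below it with the trend removed, at -0.12 and -0.59, while the other 7 genes lie below 0 in both.

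Per length of the longest transcript, the order in wild type was GAS1 (24.7 ± 16.9 CPM per kb, SD, n = 3), SMO (14.6 ± 4.91), GLI3 (12.7 ± 1.37), BOC (5.77 ± 3.62), SUFU (3.47 ± 0.421), PTCH1 (3.18 ± 0.920), GLI2 (1.17 ± 0.296), GLI1 (0.526 ± 0.327) and HHIP (0.420 ± 0.169). Of neighbours in this order, GAS1 and SMO, SMO and GLI3, BOC and SUFU, SUFU and PTCH1, and GLI1 and HHIP overlapped in their wild-type ranges. SMO also overlapped BOC. In the library labelled ARID1B shRNA the order began with SMO at 19.4 CPM per kb, GLI3 at 8.77 and GAS1 at 3.95, and ended with GLI1 at 0.347 and HHIP at 0.204.

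**Figure D4:**
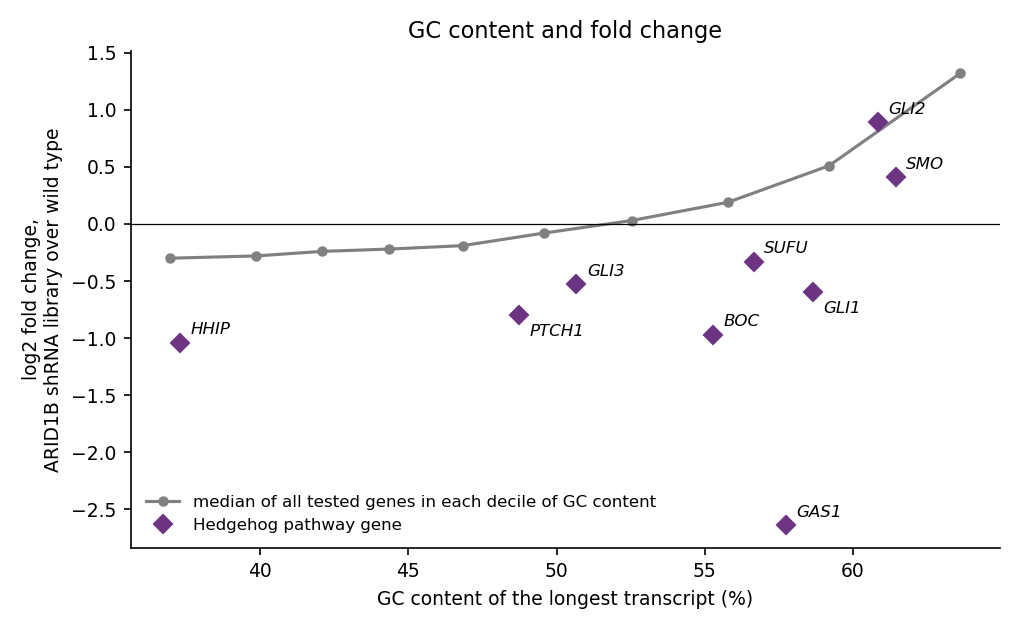
Log2 fold change of the library labelled ARID1B shRNA over wild type against GC content of the longest transcript, for the 9 genes (diamonds) and as the median of all tested genes in each decile of GC content, placed at the decile's median GC content (grey line). GLI2 and SMO, at 60.8% and 61.5% GC, sit where the grey line lies well above 0; the other 7 genes sit below both the line and 0.

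Of the ligand genes, SHH passed. SHH, which encodes Sonic hedgehog, measured 8.43 CPM in the library labelled ARID1B shRNA, from 74 counts (interval 6.62 to 10.6), against 0.233, 0.617 and 0.780 CPM in wild type, from 3, 8 and 12 counts. It rose by 3.91 on the log2 scale with an SE of 0.53 (edgeR adjusted p = 0.0274), and by 3.68 with the trend removed (edgeR adjusted p = 0.0258). SHH no longer passed when wild-type library 2 or 3 was left out, with an edgeR adjusted p of 0.0595 and 0.0557. SHH was the single called gene among 7 tested ligand and ligand-release genes, where 4.48% of all tested genes were called and 3.65% called higher. The median log2 fold change of the list was 0.70, and 0.16 with the trend removed. DHH had 0 counts in every library and IHH 1 count in the library labelled ARID1B shRNA and at most 1 in wild type.

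Of 8 tested receptors, co-receptors and ligand binders 1 fell and none rose, beside 0.834% of all tested genes called lower. In this list 7 had fitted values below 0 (median -1.0), where 53.2% of all tested genes did. PTCH1, SMO, HHIP, BOC and GAS1 are also in this list. The gene that fell was GPC6, a glypican of the cell surface, with 10.4 CPM in the library labelled ARID1B shRNA against 33.9, 29.2 and 31.1 CPM in wild type (-1.60 on the log2 scale, SE 0.25, edgeR adjusted p = 0.0332; adjusted p = 0.0358 with the trend removed). GPC6 missed the threshold when wild-type library 2 or 3 was left out (edgeR adjusted p = 0.0586 and 0.0648). Among 12 tested genes of signal transduction at the cilium 0 passed with edgeR, where 4.48% of all tested genes did. The smallest edgeR p-values there belonged to MGRN1, a ubiquitin ligase that lowers surface SMO, at 57.6 CPM against 18.4, 15.4 and 27.6 CPM (log2 fold change of 1.49, edgeR adjusted p = 0.0674), and GRK2, a kinase that acts on SMO and GPR161, at 84.5 CPM against 32.5, 35.2 and 52.6 CPM (1.07, edgeR adjusted p = 0.103). Without the trend these 2 genes came to 0.35 and 0.10. By DESeq2 10.4% of all tested genes passed, and with no filter on low counts 3226 of 30709 did. MGRN1 passed with DESeq2 (DESeq2 adjusted p = 0.0041), with no filter on low counts (edgeR adjusted p = 4.59e-07) and when wild-type library 3 was left out (0.0484). GRK2 passed with DESeq2 (DESeq2 adjusted p = 0.0295) and with no filter on low counts (edgeR adjusted p = 1.27e-04).

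Of 20 genes of GLI processing and inhibition 1 rose, beside 3.65% of all tested genes called higher, and the median log2 fold change was 0.12. CSNK1E, a casein kinase, measured 167 CPM against 52.1, 55.0 and 74.6 CPM in wild type (1.47 on the log2 scale, SE 0.23, edgeR adjusted p = 0.035). It still passed after removal of the trend, at 0.97 (edgeR adjusted p = 0.0374), but not without wild-type library 2 (0.0724). Its reads are uncertain because the read-through gene TPTEP2-CSNK1E shares an exon with it. In the wider GLI, GLIS and ZIC family of zinc finger genes 2 of 12 rose, where 3.65% of all tested genes were called higher. The median log2 fold change of this family was 0.45, and 0.01 with the trend removed. GLIS1 rose to 24.6 CPM, against 3.41, 2.31 and 4.48 CPM in wild type (2.84 on the log2 scale, edgeR adjusted p = 0.0266), and passed in each alternative run. ZIC2, a cerebellar transcription factor, measured 24.7 CPM against 8.91, 10.6 and 8.12 CPM (1.43, edgeR adjusted p = 0.043), and did not pass with the trend removed (0.80, edgeR adjusted p = 0.211) or without wild-type library 2 or 3 (0.0629 and 0.0923).

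The longer list of GLI targets, which also holds GLI1, PTCH1 and HHIP, went both ways. Of 27 tested targets 4 rose, 1 fell and 22 did not pass, where 3.65% of all tested genes were called higher and 0.834% lower. The targets had a median log2 fold change of 0.41, and 0.15 with the trend removed. FOXF1, a forkhead factor of lung and gut mesenchyme, rose to 63.9 CPM, against 6.20, 6.95 and 10.4 CPM in wild type (log2 fold change 3.02, SE 0.31, edgeR adjusted p = 0.0183; 2.98 and 0.0107 with the trend removed). FOXC2, a forkhead factor of mesoderm and lymphatic vessels, rose to 20.9 CPM, against 0.930, 1.23 and 2.79 CPM (3.64, edgeR adjusted p = 0.0335), and passed at 2.47 with the trend removed. When wild-type library 2 was left out FOXF1 and FOXC2 had an edgeR adjusted p of 0.05002 and 0.0768.

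FOXF2, the paralogue of FOXF1, measured 24.0 CPM against 7.83, 7.56 and 7.34 CPM (1.66, edgeR adjusted p = 0.0293), and the Notch ligand gene JAG2 15.3 CPM against 2.48, 1.00 and 1.89 CPM (3.08, edgeR adjusted p = 0.0314). An exon of JAG2 overlaps AL512356.1 on the same strand, which leaves its reads uncertain. Neither gene passed with the trend removed, at 0.36 and 1.63 (edgeR adjusted p = 0.537 and 0.0889), or without wild-type library 2 (0.0574 and 0.05002) or 3 (0.061 and 0.0791). BMP4, a growth factor of the TGF-beta family, was the target that fell, to 3.87 CPM against 14.6, 12.4 and 12.2 CPM (-1.75, SE 0.32, edgeR adjusted p = 0.0435; -1.90 and 0.0342 with the trend removed). BMP4 did not pass without wild-type library 2 (0.0736) or 3 (0.0832), or by limma-voom (limma adjusted p = 0.0561).

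Of 4 targets named whatever their values, CCND1, CCND2, MYCN and SFRP1, none passed in the edgeR fit, where 4.48% of all tested genes did. The run without wild-type library 1 called 1189 of 16809 tested genes. DESeq2 called 10.4% of all tested genes, and the run with no filter on low counts 3226 of 30709. The cyclin D1 gene CCND1 measured 605 CPM in the library labelled ARID1B shRNA against 77.3, 217 and 121 CPM in wild type, above each of them (log2 fold change 2.13, SE 0.51, edgeR adjusted p = 0.0871). It passed without wild-type library 1 (1.84, edgeR adjusted p = 0.0362) and with DESeq2 (2.16, DESeq2 adjusted p = 4.96e-04). CCND2, which shares an exon with AC008012.1, measured 121 CPM against 81.7, 51.5 and 37.9 CPM (1.09, edgeR adjusted p = 0.182). It passed without wild-type library 1 (1.44, edgeR adjusted p = 0.0165) and with no filter on low counts (1.07, edgeR adjusted p = 2.32e-05). MYCN, a proto-oncogene amplified in some medulloblastomas, was low in all libraries, at 1.25 CPM against 2.01, 3.01 and 2.47 CPM (-0.99, edgeR adjusted p = 0.268). SFRP1, a secreted Wnt inhibitor, measured 105 CPM against 85.9, 90.1 and 104 CPM (0.18, SE 0.18, edgeR adjusted p = 0.58).

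**Figure D5:**
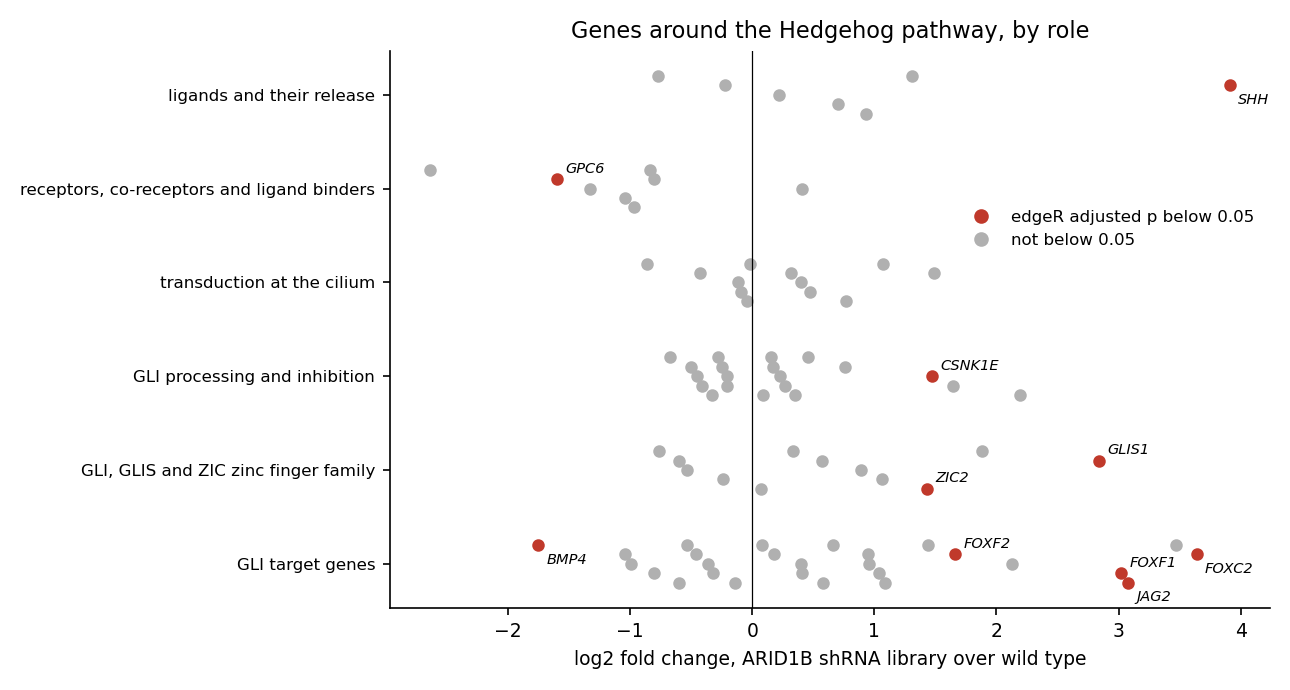
Log2 fold change of the library labelled ARID1B shRNA over wild type for each tested gene of 6 lists around the pathway, which share some genes. Red points passed at an edgeR adjusted p below 0.05 and are named. SHH lies farthest right at 3.91. Left of 0 lie 7 of the 8 receptors, co-receptors and ligand binders, where 53.2% of all tested genes were fitted below 0.

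The protein-coding genes nearest to each core gene in profile were found from log2 CPM centred over the 4 libraries, by root mean square difference, among 9997 genes with a mean log2 CPM of at least 3. For PTCH1 they were TAGLN (0.0481) and SIRT3 (0.0573), for GAS1 IL17RD (0.117) and FILIP1L (0.168), and for HHIP SSBP2 (0.0533) and the co-receptor CDON (0.0738). GLI3 was nearest to HFE and TANGO6, GLI2 to MYBL2 and EMD, SMO to ANKRD29 and RARG, SUFU to NELFCD and WARS2, BOC to EPB41L1 and RAB11FIP4, and GLI1 to PIK3C2B and AHNAK2, at 0.00979 to 0.26. IL17RD measured 6.61 CPM in the library labelled ARID1B shRNA and 63.5, 20.8 and 25.1 CPM in wild type, the same order of libraries as for GAS1. Over 4 libraries such a likeness is a description.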

How the data were processed

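The deposited values were raw read counts per gene, 1 file per library, which the authors did not normalize. The tools named in the submitters' processing notes are HISAT2, HTSeq, bcl2fastq and DESeq2, and the build is GRCh37 (hg19). For their versions, the strand setting and the annotation: not given in the sources used here. Reads of genes whose exons overlap an opposite-strand gene (GLI1, PTCH1, SMO, HHIP and BOC, and ARID1B, CCND1, CCND2, CDON, FOXC2, FOXF2, GPC6 and MYCN) are therefore uncertain. Lines naming no gene were left out. Reads counted in no feature were 5.27% in the library labelled ARID1B shRNA and 7.07% to 7.65% in wild type. These are shares of the reads that were assigned to genes, ambiguous or in no feature. Of 57820 identifiers 51996 (89.9%) matched a current symbol; of 130 list genes 1, PECAM1, matched none. GC content and length came from the longest GENCODE 29 transcript (GRCh38), promoters from RefSeq (GRCh38.p14). Exon overlaps were also read from GENCODE 29, which may differ from the annotation used for counting.

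The test was that of edgeR 4.0.16 (R 4.3.3): filterByExpr (minimum count 10, total 15), TMM, robust glmQLFit and glmQLFTest, with Benjamini-Hochberg adjustment over 17024 genes and a threshold of 0.05. Residual degrees of freedom were 2, from wild type alone, which assumes that the lone library varies alike. The GC and length trend was a loess (span 0.3) per library (genes averaging 20 counts or more), removed through offsets. Alternatives used DESeq2 1.42.0 and limma 3.58.1. The procedure was tested on simulated counts, drawn with the same dispersion for every gene and without a GC trend. That test therefore does not measure false calls under the spread and the trend of these data.

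The genes and lists were chosen with earlier results of these data known. Named genes were ARID1B, the 9 genes, in each list those that passed or else the 2 with the smallest p, CCND1, CCND2, MYCN, SFRP1 and CDON, and the 2 nearest in profile; 1 further gene of the rule is not reported here. DHH, IHH and the markers named were added after their values were seen. Marker lists summed in the library labelled ARID1B shRNA, with the wild-type range second, to 72.8 against 57.4 to 68.1 CPM (granule precursor and medulloblastoma), 18.1 against 12.3 to 21.9 (neuron), 8.31 against 4.94 to 6.33 (glia), 390 against 231 to 333 (epithelium), 0.569 against 0.0775 to 0.463 (blood) and 1.02 against 0.697 to 1.43 (endothelium).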

Additional observations from a re-analysis of the deposited data

How the results depend on the processing

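The fitted directions of GLI1, GLI3, PTCH1, HHIP, SUFU, BOC and GAS1 were negative in every alternative that gave a value (GLI1 and HHIP gave none at a mean count of at least 50). With the GC and length trend removed, GLI2 reversed to -0.12, SMO to -0.59 and ARID1B to -0.14. The count of core genes called went from 0 to 1 with no filter (PTCH1) and with DESeq2 (GAS1), and was 0 to 1 when single wild-type libraries were left out. Of all genes 763 were called, 621 higher and 142 lower. The counts were 3226, 2274 and 952 with no filter, where 30709 genes were tested. With DESeq2 they were 1775, 1336 and 439 (10.4% of 17024 tested genes called). With the trend removed 569 were called, 371 higher and 198 lower, and the higher ones made up 65.2% against 81.4%. Leaving out single wild-type libraries gave 157 to 1189 calls, 140 to 912 higher and 17 to 277 lower, the fewest without library 2. Calls per list over the same omissions were 0 to 2 for ligands, 0 to 2 for receptors, 0 to 1 for cilium transduction, 0 to 2 for GLI processing, 1 to 2 for the zinc finger family and 0 to 8 for targets. With no filter they were 2 for receptors, 2 for cilium transduction, 5 for GLI processing and 8 for targets. DESeq2 gave 2 for receptors, 2 for cilium transduction and 4 for GLI processing. The trend removal gave 1 for cilium transduction (ARRB1, named after its value was seen), 1 for the zinc finger family and 3 for targets, and a mean count of at least 50 left 0 for ligands, since SHH was below it. In the library labelled ARID1B shRNA the shares of GLI1, GLI2 and GLI3 per length were 3.07%, 19.3% and 77.7%, and with the trend removed, an alternative chosen after seeing the data, GLI2 gave 11.3% and GLI3 87.5%. For these changes the cause was not tested, apart from the fewer libraries or genes in a fit. No paired analysis was possible because the library labelled ARID1B shRNA carries no replicate number and is alone in its group. GLI1, HHIP and MYCN had at most 18 counts in the library labelled ARID1B shRNA, which limits their precision there.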
